A study of Mus musculus with 28 samples.

Results

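Per2 encodes a core repressor of the circadian clock. In that clock the CLOCK and BMAL1 proteins drive transcription of the Per and Cry genes, whose products return to the nucleus and repress CLOCK and BMAL1, and Per2 is also known as a tumour suppressor gene in the lung. Histone marks give a view of the state of such a gene. H3K4me3 marks active promoters, H3K4me1 and H3K27ac mark enhancers (H3K27ac also marks active promoters), H3K79me2 lies along the first part of transcribed genes, and H3K27me3 and H3K9me3 mark repressed chromatin. MLL4, also called KMT2D, is a methyltransferase that places H3K4me1 at enhancers.

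The Per2 locus was taken as 90 kb of chromosome 1, from 93.29 to 93.38 Mb in the mouse build mm9. Every called peak of the 24 antibody libraries that shared at least 1 bp with this stretch was kept, which gave 187 of 950445 peaks. Per2 lies on the minus strand, so transcription runs toward lower positions, and its promoter point was placed at 93.356 Mb. The promoter window is the 4 kb around that point, from 93.354 to 93.358 Mb. Positions below are given as distances from it, downstream meaning in the direction of transcription.

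The tissue was mouse lung tumour, profiled by ChIP-seq, in which an antibody to 1 histone mark pulls down the DNA that carries it. Per the labels, tumours arose after Ad-CMV-Cre, an adenovirus that expresses Cre recombinase from the CMV promoter (which is not specific to a cell type), in K-RasLSL-G12D mice and in K-RasLSL-G12D;Mll4fl/fl mice. The mutant K-Ras allele is shared by both tumour types, and the floxed Mll4 alleles are what separates them. Each of 6 marks has 4 libraries, numbered 1 to 4, and 4 input samples were not analysed here. The age of the mice, and whether libraries came from separate animals, are not given in the labels, so the unit of each test was a library, not an animal. In the tests below, the side compared against was at 0 in every library. Their p-values therefore restate the presence of a mark and do not measure the spread between libraries. Tumour tissue can hold other cells besides tumour cells, and fewer cells with a mark cannot be told apart from less of the mark per cell.

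The labels do not say from which of the 2 tumour types a library came. The deposited lists of replicates 1 and 2 carry the letters MLL in their names and those of replicates 3 and 4 carry RAS, for all 6 marks. The labels do not define those letters, so no genotype was assigned and no test was made between the sets of lists. With 2 libraries against 2, an exact permutation test could not go below a p of 0.333. Values are given for each replicate with the letters of its list.

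Read depth is unknown, since the lists hold no read counts. A list held 5224 to 96068 peaks. Some libraries stood apart over the whole genome. H3K4me3 replicate 1 shared few bases with the other H3K4me3 lists, with a Jaccard index (bases in both lists over bases in either) of 0.0720 to 0.0838, against 0.684 to 0.703 among the others. The 2 MLL-named H3K27ac lists held narrow peaks, with medians of 233 and 216 bp, against 2051 and 1702 bp in the RAS-named lists, and their Jaccard index with each other was 0.102, against 0.626 for the RAS-named pair. Values are given for each library, and mean differences also without single replicates. Overlaps between marks and between libraries are given with all libraries.

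**Figure D1:**
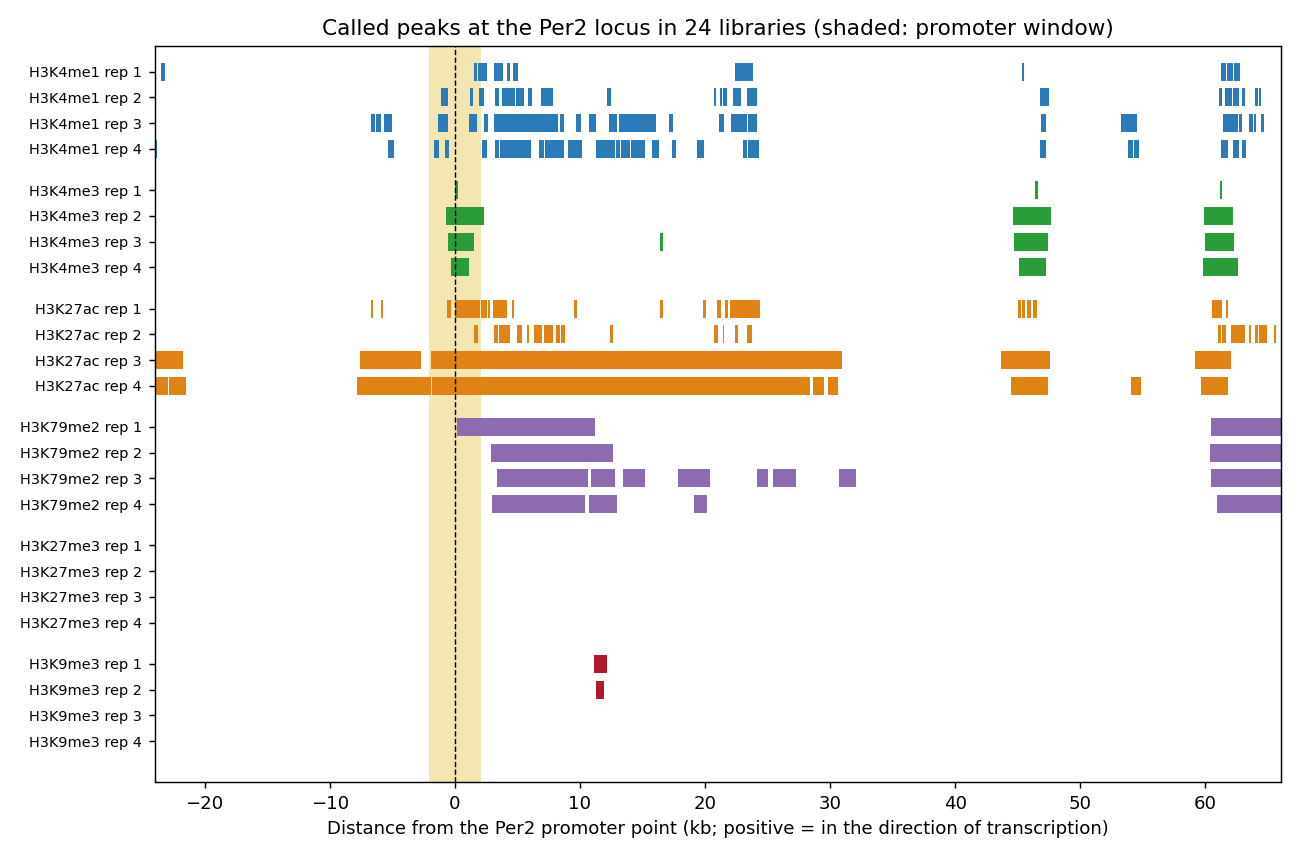
Peaks called at the Per2 locus in each of the 24 libraries, drawn as bars against the distance from the promoter point in kb (positive values in the direction of transcription); the shaded band is the 4 kb promoter window. H3K4me3 sits at the promoter and at 2 sites downstream, H3K27ac forms a block of 30 kb or more in replicates 3 and 4, and H3K27me3 has no peak.

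At the promoter, H3K4me3 was present in all 4 libraries, and the promoter point itself lay inside a peak in each. With every list cut to its 5224 highest-scored peaks, the H3K4me3 promoter peak remained in 0 of 4 libraries. The peak spanned 232 bp in replicate 1 (MLL), 3051 bp in replicate 2 (MLL), 1972 bp in replicate 3 (RAS) and 1422 bp in replicate 4 (RAS). Replicate 1 was the narrow one, and the median peak of its whole list was 263 bp, against 2033, 423 and 1794 bp in replicates 2 to 4. Of the other 3, the MLL-named replicate 2 had a wider peak than both RAS-named lists. The bases from 93355776 to 93356007 were covered in all 4 libraries, and a stretch of 1422 bp, from 93354870 to 93356291, in at least 3. An H3K4me3 peak in all 4 libraries is found in 0.918% of the 643363 windows of 4 kb that tile the genome. The authors' score placed the promoter peak at the 33.4th, 53.9th, 71.7th and 46.8th percentile of H3K4me3 peaks in replicates 1 to 4.

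H3K4me1 was also present in the promoter window in 4 of 4 libraries (1 of 4 with lists of equal length), where 2.58% of 4 kb windows hold it in all 4. It covered 422, 865, 1415 and 711 bp of the window in replicates 1 to 4, and never the promoter point, whose nearest H3K4me1 base was 460 to 1563 bp away. H3K27ac was present in 4 of 4 libraries as well (background 1.83%), and in 3 of 4 with lists of equal length or within 1 kb of the promoter point. In replicate 2 its only peak in the window lay 1532 bp from that point, at the 19.8th percentile of score. H3K27ac covered 2232 bp of the window in replicate 1, 288 bp in replicate 2, 3900 bp in replicate 3 and 3872 bp in replicate 4. The RAS-named lists thus had the window almost filled, and replicate 2 had little of it. H3K79me2 reached the window in replicate 1 alone, with 1822 bp (background for all 4 libraries 5.52%). Neither H3K27me3 nor H3K9me3 had a peak there in any library, as in 91.8% and 97.5% of 4 kb windows, and 1.3% and 0.224% hold them in all 4.

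Over the whole locus, H3K27ac covered most in replicates 3 and 4, and H3K79me2 covered most in replicates 1 and 2. H3K27ac covered 10.4 kb in replicate 1 and 8.36 kb in replicate 2 (MLL), and 46.9 kb in replicate 3 and 46.2 kb in replicate 4 (RAS). These are 11.6%, 9.29%, 52.1% and 51.4% of the locus, and the 2 sets of lists lay far apart. H3K79me2 covered 18.5%, 17.1%, 25.6% and 17.5% in replicates 1 to 4. H3K4me1 covered 6.23% and 10.5% in replicates 1 and 2, and 21.9% and 18.4% in replicates 3 and 4. Here too both RAS-named lists lay above both MLL-named lists. H3K4me3 covered 0.729%, 9.33%, 8.27% and 7.08%, with replicate 1 far below the others. H3K9me3 covered 1.22% and 0.688% in replicates 1 and 2 and nothing in replicates 3 and 4, and H3K27me3 covered nothing in any library.

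**Figure D2:**
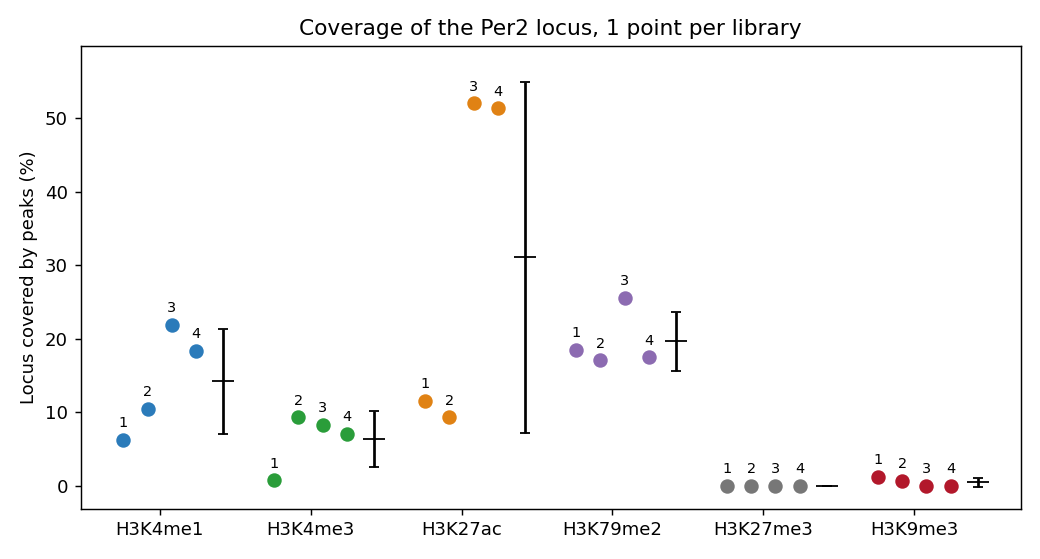
Percent of the 90 kb Per2 locus covered by peaks, 1 point per library with its replicate number, by mark; the dash and bar beside each mark are the mean and SD of 4 libraries. H3K27ac splits into 9.29% to 11.6% in replicates 1 and 2 and 51.4% to 52.1% in replicates 3 and 4, while H3K79me2 stays between 17.1% and 25.6%.

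Each of the 4 active marks was compared with H3K27me3, the mark of Polycomb repression. The mean coverage of the locus was 31.1% ± 23.8 for H3K27ac, 19.7% ± 4.01 for H3K79me2, 14.2% ± 7.16 for H3K4me1 and 6.35% ± 3.86 for H3K4me3 (SD, n = 4 each), against 0% for H3K27me3. These means pool MLL-named and RAS-named lists. No H3K27ac library lay near its mean, with 11.6% and 9.29% in replicates 1 and 2 and 52.1% and 51.4% in replicates 3 and 4. Since H3K27me3 was at 0 in all 4 libraries, any mark with a covered base in each of its libraries must be higher in 16 of 16 library pairs, so the test adds nothing to the presence of the mark in 4 of 4 libraries. Each of the 4 marks gave that outcome, with a two-sided exact permutation p of 0.0286, the smallest that 4 libraries against 4 allow, and 0.0286 after Benjamini-Hochberg adjustment over the 4 tests. For H3K4me3 this presence was lost once peaks below the median score of all lists were dropped (exact permutation p 0.143), where replicate 1 kept no peak in the locus. With lists of equal length the difference from H3K27me3 fell to 4.42 percentage points for H3K4me1 and 2.82 for H3K4me3, and over a narrower locus about the gene it was 3.85 for H3K4me3. A lack of H3K27me3 was common: 68.9% of 28577 windows of 90 kb held no H3K27me3 peak in any library. All 4 active marks were present in all 4 libraries in 2816 windows (9.85%), the Per2 locus among them, and 53.1% of those held no H3K27me3 peak in any library.

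For single marks the background differed. H3K4me1 was found in all 4 libraries in 24.9% of 90 kb windows, H3K4me3 in 15.8%, H3K27ac in 20.4%, H3K79me2 in 23.4%, H3K27me3 in 11.7% and H3K9me3 in 3.18%. Ranked by covered bases within each library, which is a different measure, the Per2 locus stood high for H3K27ac and H3K4me1. Among all 90 kb windows, 0.658% to 2.51% had as much H3K27ac as the locus or more, over the 4 libraries, and 1.13% to 2.75% had as much H3K4me1. Among the 2816 windows with all 4 active marks, these shares were 2.88% to 15.4% for H3K27ac and 5.79% to 13.0% for H3K4me1. For H3K79me2 they were 42.8% to 65.8%, so its extent at Per2 was near the middle of those windows. For H3K4me3 they were 15.6% to 36.5%.

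H3K27ac formed a single block over the promoter and much of the gene in the RAS-named lists. In replicate 3 a peak of 32.8 kb ran from 93325052 to 93357900, reaching past the promoter point and 30.9 kb downstream of it. In replicate 4 a peak of 30.2 kb ran from 93327592 to 93357788. They were the 26th and the 37th widest peaks of lists with 40049 and 43235 peaks. A second peak lay directly upstream in both, of 4874 bp and 5860 bp. The Per2 gene is 43.4 kb long in the GRCm38 gene table, so the block ended inside the gene.

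In the MLL-named lists the same stretch held separate, narrow H3K27ac peaks. Those lists held no peak of 20 kb or more anywhere, and their widest were 6780 and 4739 bp, while each RAS-named list held 169 such peaks. The widest peak of the locus was 2.44 kb in replicate 1, the 88th widest of 61536, at 93331591 to 93334026, which is 22.0 to 24.4 kb downstream of the promoter and inside the gene. Its score lay at the 99.7th percentile of that list. In replicate 2 the widest peak was 1.07 kb, ranked 741 by width of 80030, and lay 62.1 to 63.1 kb downstream, past the end of the gene. Closing gaps of up to 1 kb did not join the peaks into a block: the widest stretch was 5.36 kb in replicate 1 and 5.68 kb in replicate 2, against 38.5 kb and 38.4 kb in replicates 3 and 4. With gaps of up to 3 kb closed, a setting chosen after the data were seen, these were 5.36, 7.26, 38.5 and 38.4 kb.

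**Figure D3:**
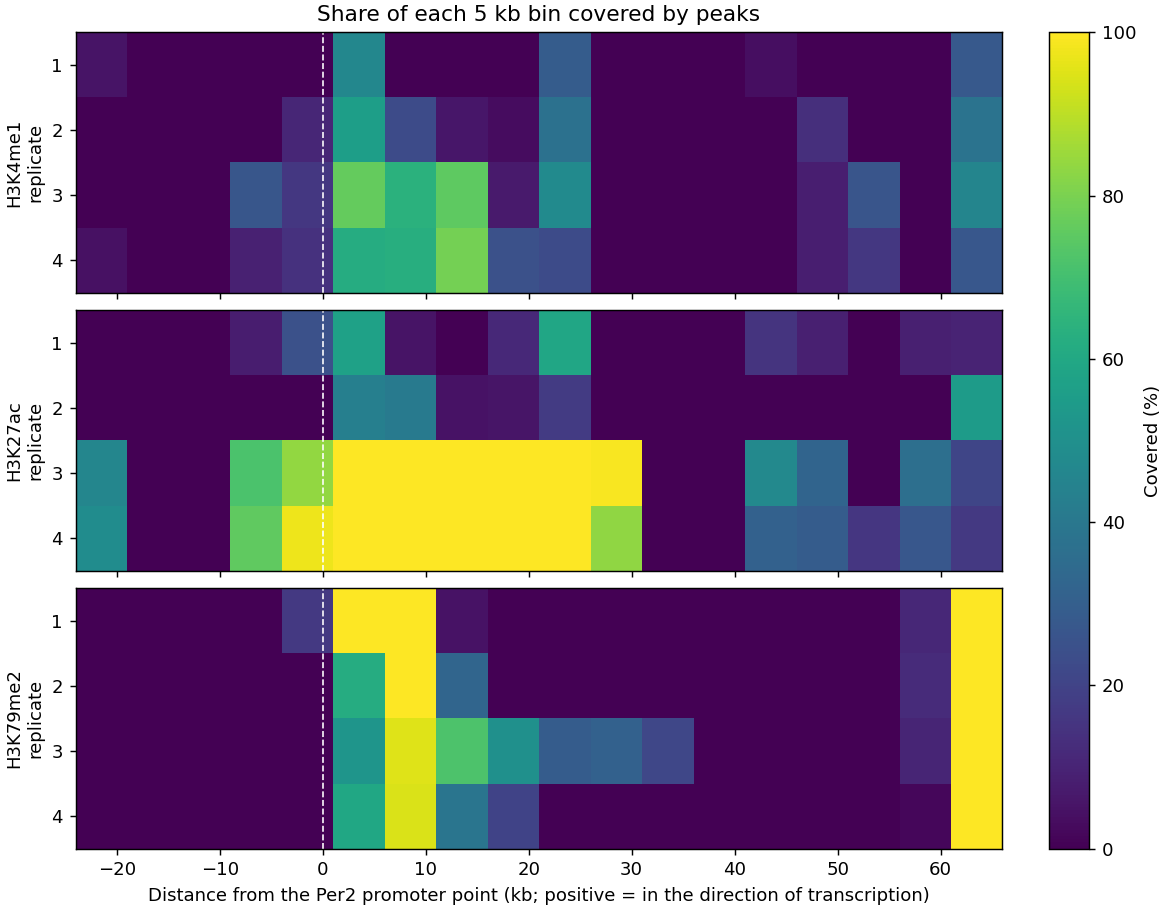
Share of each 5 kb bin of the Per2 locus covered by H3K4me1, H3K27ac and H3K79me2 peaks (colour, 0% to 100%), with replicates 1 to 4 in rows and the distance from the promoter point in kb along the axis. H3K27ac fills every bin from 1 to 26 kb downstream in replicates 3 and 4 and none in replicates 1 and 2, while H3K79me2 covers 94.24% or more of the bin from 6 to 11 kb, and all of the bin from 61 to 66 kb, in each of the 4 libraries.

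The gap between the H3K27ac lists was not particular to Per2. Both RAS-named lists covered more than both MLL-named lists in 89% of the 5832 windows of 90 kb that held H3K27ac in all 4 libraries. The lower value of replicates 3 and 4 was 4.43 times the higher value of replicates 1 and 2 at Per2, against a median of 3.03 over those windows, and 31.4% of them had a ratio as large or larger. Measured against the mean coverage of all 90 kb windows in its own list, the locus was 14.9-fold higher in replicate 1, 10.8-fold in replicate 2, 11.6-fold in replicate 3 and 11.7-fold in replicate 4. On that scale replicates 3 and 4 lay between replicates 1 and 2. The smallest peak of a list was 68 and 55 bp in replicates 1 and 2 and 377 and 305 bp in replicates 3 and 4, so peak width moved with the letters of the lists over the whole genome, and its part in the block at Per2 was not tested.

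**Figure D4:**
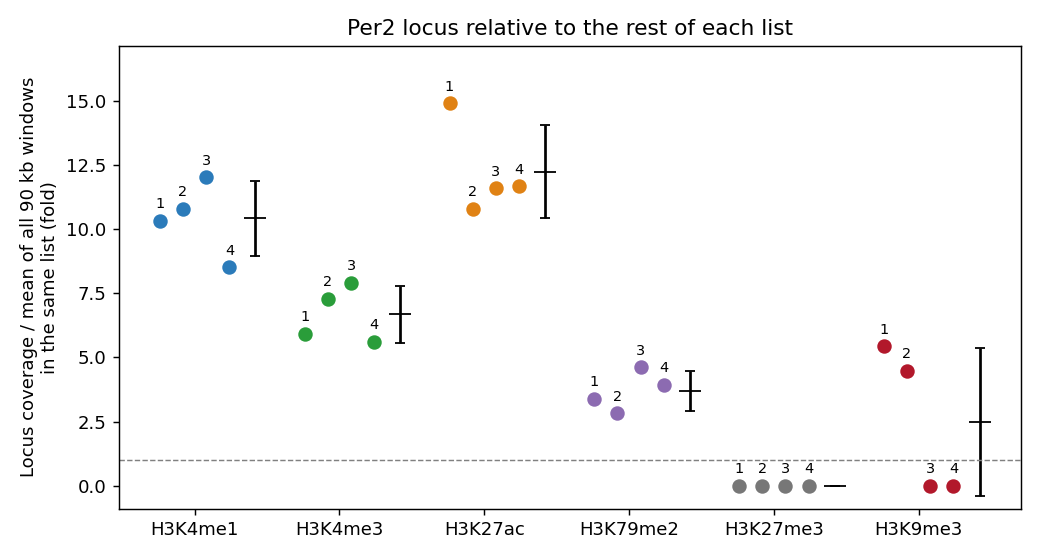
Coverage of the Per2 locus divided by the mean coverage of all 90 kb windows in the same list, 1 point per library with its replicate number; dash and bar are the mean and SD of 4 libraries, and the dashed line marks 1. H3K27ac lies between 10.8-fold and 14.9-fold and H3K4me1 between 8.51-fold and 12.0-fold, without the separation of replicates seen in percent covered.

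H3K4me1 was spread over the first part of the gene and differed between libraries in several stretches. The locus held 12 and 24 H3K4me1 peaks in replicates 1 and 2, and 29 and 28 in replicates 3 and 4, from lists of 49595, 81432, 96068 and 93258 peaks, so the shorter lists also held fewer peaks here. From 1 to 6 kb downstream it covered 46.1%, 56.2%, 76.3% and 62.0% of the bases in replicates 1 to 4, so this part was marked in every library. From 11 to 16 kb downstream it covered 0, 293, 3755 and 3950 bp of the 5 kb, so replicates 3 and 4 had most of this bin marked and replicates 1 and 2 little or none. That bin and the stretches named next were picked out after their values were seen. The share of 5 kb bins over the genome with both RAS-named lists above both MLL-named lists was not computed. The RAS-named lists were also higher from 6 to 11 kb (0%, 22.9%, 63.8% and 62.6% in replicates 1 to 4) and from 51 to 56 kb, past the gene (0%, 0%, 26.5% and 16.3%). They were higher upstream as well, 4 to 9 kb from the promoter point (0%, 0%, 26.7% and 9.24%). The same order held from 1 to 6 kb, from 16 to 21 kb (0%, 3.36%, 7.06% and 24.9%) and in the bin holding the promoter point (0%, 10.8%, 16.1% and 14.2%). Inside the gene from 21 to 26 kb the RAS-named lists were not both higher, with 29.1%, 37.3%, 48.0% and 23.0%. Nor were they from 46 to 51 kb, with 0%, 13.6%, 8.4% and 8.42%.

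By covered bases of the locus, both RAS-named H3K4me1 lists lay above both MLL-named lists, as they did in 65.1% of the 7126 windows of 90 kb with H3K4me1 in all 4 libraries. The ratio of the lower value of replicates 3 and 4 to the higher value of replicates 1 and 2 was 1.76 at Per2, against a median of 1.33, and 34.9% of those windows had a ratio as large or larger. Relative to the mean window of its own list the locus was 10.3-fold, 10.8-fold, 12.0-fold and 8.51-fold higher in replicates 1 to 4. As background for the bin from 11 to 16 kb alone, 2924 bins of 5 kb across the genome were at least 50% covered in both RAS-named lists. Of these, 10.7% were at most 10% covered in both MLL-named lists. At Per2, 3 bins met the first condition and 1 of them the second, which is too few to compare with that share. For H3K27ac, 38.7% of 14696 such bins met the second condition, and 3 of 8 at Per2.

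An internal site carried H3K4me1 and H3K27ac together in all 4 libraries. It lay 22 to 24 kb downstream of the promoter, with H3K4me1 shared by all 4 from 93332157 to 93332550 and H3K27ac shared by all 4 from 93332267 to 93332674. No library had H3K4me3 at this site. A second stretch, 3.1 to 4.1 kb downstream, also carried both marks in all 4 libraries. Within a replicate, 61.4%, 48.9%, 84.8% and 93.5% of the bases with H3K4me1 in the locus also had H3K27ac (replicates 1 to 4).

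H3K79me2 began close to the promoter and ran into the gene, and of the 4 active marks its coverage of the locus had the smallest SD relative to its mean. The main domain was 11065 bp long in replicate 1, from 93344758 to 93355822, and 9725 bp in replicate 2, from 93343375 to 93353099. In replicates 3 and 4 it was 7228 and 7409 bp long, and lower-scored peaks followed it, the last of which ended 32.1 kb downstream in replicate 3 and 20.2 kb in replicate 4. Bases from 93345580 to 93352602 were covered in all 4 libraries. The score of the main domain lay at the 97.4th percentile of its list in replicate 1 and at the 99.7th or higher in the others.

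On the transcribed side of the promoter, from 2 to 40 kb downstream, H3K79me2 covered 24.3%, 25.6%, 46.1% and 28.04% in replicates 1 to 4. On the upstream side, from 2 to 24 kb, it covered 0% in each library. The difference was 31.0 ± 10.2 percentage points (SD, n = 4), in the same direction in 4 of 4 libraries, with an exact sign-flip p of 0.125, which is the smallest that 4 differences allow. With the upstream side at 0 in every library, that direction and p restate that H3K79me2 was present on the transcribed side in 4 of 4. Between 5 and 20 kb on each side the difference was 56.4 percentage points. On the transcribed side both RAS-named lists lay above both MLL-named lists, with 10656 bp in replicate 4 against 9243 bp in replicate 1. That segment leaves out the promoter window, where replicate 1 covered a further 1822 bp and replicates 2 to 4 nothing. The order of replicates 1 and 4 thus depends on where the segment starts, and the share of such segments over the genome was not computed. Over the whole locus the RAS-named lists did not both lie above, since replicate 4 (17.5%) lay between replicates 2 and 1. By covered bases of whole 90 kb windows with H3K79me2 in all 4 libraries, both RAS-named lists lay above both MLL-named lists in 5.30% and below both in 49.3%. The ratio of the lower RAS-named to the higher MLL-named value was 0.947 at the locus, against a median of 0.640, and 8.52% of those windows had a ratio as large or larger.

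H3K9me3 had 1 peak in the locus in replicate 1, 1094 bp from 93343808 to 93344901, and 1 in replicate 2, 619 bp from 93344097 to 93344715. It had none in replicates 3 and 4. The 2 peaks overlapped each other, 11.1 to 12.2 kb downstream of the promoter and inside the gene. They lay at the 75.9th and 68.5th percentile of score in lists of 7302 and 8533 peaks, while replicates 3 and 4 had 5224 and 11244 peaks. An H3K9me3 peak in both MLL-named lists and in neither RAS-named list was seen in 2.24% of 90 kb windows, and the opposite pattern in 100 of the 28577 windows. Among the 2280 windows with H3K9me3 in both MLL-named lists, 28.1% had none in the others. The stretch fell in the bin of 11 to 16 kb where the MLL-named lists had at most 5.86% H3K4me1. No base of either peak carried H3K4me1, H3K4me3 or H3K27ac in the same replicate, and 13.2% and 100% of their bases carried H3K79me2.

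The locus reached past the Per2 gene on both sides. In the GRCm38 gene table the next genes beyond the 3′ end are Hes6, a member of the Hairy and Enhancer of split family of transcription factors, and the noncoding 1700020N18Rik. On the upstream side the next after Gm35591, a noncoding gene that overlaps Per2 itself, is the noncoding Gm28382. The table is in another build, so these genes were used by order only. Peaks cannot be given to Per2 or to Gm35591 alone. H3K4me3 had 2 further sites downstream of the promoter in all 4 libraries. The first, 45.1 to 47.3 kb downstream in at least 3 libraries (2174 bp), lay past the length of Per2 and carried H3K27ac in replicates 1, 3 and 4. An H3K4me1 peak overlapped it in all 4 libraries, but in replicate 1 at 93310486 to 93310676, apart from the peaks of the other replicates. Its H3K4me3 score percentile ranged widely, at 4.00, 22.3, 99.2 and 49.2 in replicates 1 to 4.

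The second site, 59.9 to 62.2 kb downstream (2243 bp in at least 3 libraries), carried H3K4me3, H3K4me1 and H3K27ac in all 4 libraries. Beside it an H3K79me2 domain covered at least 5091 bp up to the edge of the locus in each. In this stretch both RAS-named H3K4me1 lists did not lie above both MLL-named lists: in the last bin of the locus, from 61 to 66 kb, it was 27.9%, 38.3%, 45.6% and 27.02% in replicates 1 to 4. On the upstream side of Per2, from 2 to 24 kb, H3K27ac covered 1.81% and 0% in replicates 1 and 2, and 32.6% and 37.3% in replicates 3 and 4, and no library had H3K4me3 there.

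The libraries that shared most bases at Per2 were H3K27ac replicates 3 and 4. For H3K27ac the Jaccard index at the locus was 0.906 between replicates 3 and 4 and 0.137 between replicates 1 and 2, and the pairs across lay between 0.125 and 0.226. Of the 51077 bases with H3K27ac in any library, 29976 (58.7%) had it in replicates 3 and 4 alone, none in replicates 1 and 2 alone, and 2270 (4.44%) in all 4. Over the whole lists these shares were 42.9%, 0.0483% and 2.41%. For H3K4me1, 5501 of 26470 bases (20.8%) were covered in replicates 3 and 4 alone, 304 (1.148%) in replicates 1 and 2 alone and 2018 (7.62%) in all 4, against 15.9%, 1.18% and 5.69% over the whole lists. For H3K79me2, 12486 of 26753 bases (46.7%) were covered in all 4, 1195 (4.47%) in replicates 3 and 4 alone and 240 (0.897%) in replicates 1 and 2 alone. Over the whole lists these shares were 39.1%, 3.40% and 7.14%. In H3K27ac replicate 2, 82.7% of the covered bases in the locus also had H3K79me2, against 46.9%, 38.4% and 25.0% in replicates 1, 3 and 4. Without replicate 2, the mean coverage of the locus by H3K27ac was 38.3 percentage points above that by H3K27me3, and without replicate 1 the H3K4me3 difference was 8.23.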

How the data were processed

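The 24 files are peak lists, 1 per library, with a chromosome, start, end, name and score. Per the submitters' processing notes, CASAVA 1.7, Bowtie, MACS and deepTools were used and the build was mm9. The settings, and whether the input served as control, are not given in the sources used here. The deposited score is the authors' own value per peak, with a lowest value of 50; it served to rank peaks within a list, and to filter them in 2 alternatives. Depth is unknown, so no counting interval is given.

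Groups and replicate numbers came from the titles. Coverage was the number of bases under at least 1 peak. Genome windows of 90, 4 and 5 kb were tiled in phase with the locus on the autosomes and X, between the first and the last covered base of each chromosome. Tests were exact two-sided permutation or sign-flip tests (Python 3.11.15, numpy 2.4.6), checked on simulated intervals. Positions are 1-based. The position of the promoter and the locus were taken as given for this work, not from an mm9 annotation. The members and the comparisons were chosen with earlier results of these data known. Per2 and its neighbours in gene order were named by rule; other clock genes, tissue markers and promoter motifs were not analysed here. No 2 lists were identical. Alternatives were a score filter, equal list lengths, closed gaps, other windows, a log scale, a replicate block and leaving out replicates.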

Additional observations from a re-analysis of the deposited data

Results flagged for a closer look

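Over 19 groups of 4 libraries (4 quantities of 6 marks, without the groups that had no spread), 4 values lay beyond Dixon's 95% critical value, where chance flags about 1 in 20 groups of untied values. For the H3K4me3 peak count and the H3K79me2 promoter bases, 3 of the 4 values are tied, so that rate does not apply to them. H3K4me3 replicate 3 had 5 peaks in the locus, against 3 in each of the others; its 2 extra peaks were 125 and 273 bp wide. H3K79me2 replicate 3 covered 25.6% of the locus, against 17.1% to 18.5% in the others. H3K79me2 replicate 1 covered 1822 bp of the promoter window, against 0 in the others, whose domains began 2902 to 3399 bp from the promoter point. In H3K4me3 replicate 1 no peak of the locus was wider than 232 bp, while replicates 2 to 4 each had one of 2755 to 3051 bp.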

How the results depend on the processing

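Since H3K27me3 had no peak in the locus in any library, no alternative could turn the direction of the comparisons with it. With the replicate block, a paired test within replicate numbers, the differences were the same (14.2 percentage points for H3K4me1, 6.35 for H3K4me3, 31.1 for H3K27ac and 19.7 for H3K79me2) and each exact sign-flip p was 0.125, the smallest 4 pairs allow. Same-numbered deviations over 90 kb windows correlated from -0.105 to 0.165 in 16 pairs, each of an active mark with H3K27me3. Active marks were not correlated with each other, so this check cannot show whether same-numbered libraries share a sample. Leaving out 1 replicate number at a time gave 11.7 to 16.9 for H3K4me1, 5.36 to 8.23 for H3K4me3, 24.1 to 38.3 for H3K27ac and 17.7 to 20.5 for H3K79me2, with an exact permutation p of 0.1, the smallest 3 against 3 allow. The H3K4me3 difference became 6.06 when peaks scored below the median of 92.2 were dropped and 2.82 when each list was cut to its 5224 highest scores, and lost its call under both (exact permutation p 0.143). The same cut took H3K4me1 to 4.42, and a narrower locus about the gene took H3K4me3 to 3.85. The H3K79me2 difference between the sides was 26.0 to 33.3 leaving out 1 replicate and 56.4 from 5 to 20 kb.

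Counts of libraries with a promoter peak moved most under equal list lengths, to 1 for H3K4me1 and 0 for H3K4me3 with the 5224 best-scored peaks. For H3K79me2 the count was 1, and it was 4 within 5 kb of the promoter point, 0 with a minimum overlap of 50%, and 0 to 1 leaving out 1 replicate. The cause was not tested. The lists hold no depth, so a missing peak does not show that a mark was absent.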
